A study of Mus musculus with 6 samples.

Results

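The metallothioneins Mt1 and Mt2, the zinc-sensing transcription factor Mtf1 and 7 zinc transporters were followed in cultured mouse keratinocytes. These 10 genes, out of 24982 listed, were chosen on the measured difference between the 2 cell lines compared here, because Mt2 was abundant and its level was lower in the DKSFM line. The levels of the 10 genes in that comparison are therefore given as a description, without p-values. The KSFM-Ca2+ line was derived from neonatal C57BL/6 skin and kept in a low-calcium keratinocyte medium, KSFM-Ca2+. The DKSFM line descends from the KSFM-Ca2+ cells and was adapted to another keratinocyte medium, DKSFM, which contains more calcium. Neither line was treated. RNA-seq was carried out on 3 libraries of each line, numbered 1 to 3. Medium and line history changed together, so their contributions cannot be told apart. What separated the replicates of a line, such as culture or extraction, is not given in the sources used here, so each SD and p-value measures only the spread between these libraries.

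Metallothioneins are small, cysteine-rich proteins that bind zinc and copper ions in the cytoplasm and buffer their free concentration. MTF1 senses zinc, moves to the nucleus and activates Mt1, Mt2 and the exporter gene Slc30a1 through short DNA motifs called metal response elements. Transporters of the SLC30 family (ZnT proteins) move zinc out of the cytoplasm, across the plasma membrane or into vesicles and organelles, and those of the SLC39 family (ZIP proteins) move zinc into it. Skin is rich in zinc, and loss of the intestinal importer encoded by SLC39A4 causes acrodermatitis enteropathica, an inherited zinc deficiency with skin lesions.

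Mt1 and Mt2 lie on the same strand of chromosome 8 in a cluster with Mt3 and Mt4. In GENCODE M21 on GRCm38 (mm10), Mt2 spans positions 94172664 to 94173568 and Mt1 spans 94179082 to 94180327, with 5513 bases between them. Each gene has 3 exons in its first-listed transcript. The 183 coding bases of Mt1 and Mt2, without the stop codon, were identical at 145 positions (79.2%). No stretch of the read length, 85 bases, in the 511 bases of the first-listed Mt2 transcript or the 549 bases of that of Mt1 occurred in a transcript of another gene, and the longest stretch that these 2 transcripts shared was 20 bases. Reads of one gene could thus be told from those of the other.

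RefSeq promoter windows on GRCm38.p6, from 250 bases before the annotated start to 20 after it, were searched for the core of the metal response element. The core was spelled TGCACNC or TGCGCNC, and on the opposite strand GNGTGCA or GNGCGCA. Matches on opposite strands may overlap each other. Of 32851 windows of this length, 23.2% held at least 1 match, 5.96% at least 2 and 0.365% at least 4. The windows of Mt2, Mt1 and Slc30a1 are shown because these genes are known MTF1 targets and were the 3 genes of the 10 whose DKSFM libraries all lay below the KSFM-Ca2+ libraries. All 3 sequences are on the + strand and read 5′ to 3′, with the matches in capitals. They are chr8:94172368-94172637 for Mt2, chr8:94178839-94179108 for Mt1 and chr1:191906531-191906800 for Slc30a1.
Mt2: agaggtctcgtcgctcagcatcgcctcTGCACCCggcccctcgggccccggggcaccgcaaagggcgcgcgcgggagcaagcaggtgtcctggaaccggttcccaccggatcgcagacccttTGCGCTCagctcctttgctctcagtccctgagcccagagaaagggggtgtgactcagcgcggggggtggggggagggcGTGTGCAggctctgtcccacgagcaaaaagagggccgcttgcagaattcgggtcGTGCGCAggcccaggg
Mt1: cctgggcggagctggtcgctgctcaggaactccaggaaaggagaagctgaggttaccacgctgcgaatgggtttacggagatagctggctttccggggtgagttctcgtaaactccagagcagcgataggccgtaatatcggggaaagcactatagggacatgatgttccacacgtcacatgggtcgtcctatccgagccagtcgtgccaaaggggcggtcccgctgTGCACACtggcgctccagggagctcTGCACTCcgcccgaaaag
Slc30a1: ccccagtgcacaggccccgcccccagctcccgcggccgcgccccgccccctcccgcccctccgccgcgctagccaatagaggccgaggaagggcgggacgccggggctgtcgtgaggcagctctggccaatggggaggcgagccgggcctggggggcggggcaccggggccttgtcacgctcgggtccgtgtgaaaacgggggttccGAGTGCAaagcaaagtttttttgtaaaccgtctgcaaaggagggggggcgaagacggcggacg

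The Mt2 window held 4 matches, with first bases at positions -223, -128, -50 and 5 relative to the RefSeq start, which is position 1. The Mt2 transcripts of GENCODE M21 start at 94172664 and 94172860, after the end of this window, so all 4 matches lie before those starts. The window of Mt1 held 2, at -23 and 3, and that of Slc30a1 held 1, at -43. Among the other genes of the 10, the Slc30a4 window held 3 matches and the Slc30a5 window 1, while the windows of Mtf1, Slc39a1 and Slc39a10 held 0. Slc39a4 and Slc39a6 were not in the promoter table. GENCODE M21 also lists Mt1 transcripts that start at positions 94179211 and 94179241, and the bases just before those starts lie outside the window shown. A match describes the letters in a window and says nothing about binding there.

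Metallothionein transcripts were among the most abundant of the KSFM-Ca2+ cells and were several-fold scarcer in the DKSFM cells. Levels are mean read coverage per base of a gene, which is a value per length, scaled between libraries to normalized coverage. Normalized coverage of Mt2 was 5450, 5368 and 5463 in KSFM-Ca2+ replicates 1 to 3, and 1065, 1009 and 1077 in DKSFM replicates 1 to 3. The lowest KSFM-Ca2+ library thus lay far above the highest DKSFM library, and the libraries within each line lay close together. The mean level of Mt2 was 5427 ± 51.9 (SD, n = 3) in KSFM-Ca2+ and 1050.2 ± 36.2 (SD, n = 3) in DKSFM. The log2 difference of Mt2, DKSFM minus KSFM-Ca2+ on the log2(normalized coverage + 0.1) scale, was -2.37 (SE 0.031), or 5.17-fold lower in DKSFM.

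Mt1 had a smaller difference in the same direction. Its normalized coverage was 3175, 3097 and 3162 in the KSFM-Ca2+ replicates and 1392, 1399 and 1364 in the DKSFM replicates. The libraries of the lines again did not overlap. Mean levels of Mt1 were 3145 ± 41.8 (SD, n = 3) and 1385 ± 18.7 (SD, n = 3), a log2 difference of -1.18 (SE 0.025), or 2.27-fold lower in DKSFM. In the order of mean levels over all genes, Mt2 stood at place 11 in KSFM-Ca2+ and place 163 in DKSFM, and Mt1 at places 28 and 118. In bulk RNA, fewer cells with a transcript and less transcript per cell cannot be told apart.

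**Figure D1:**
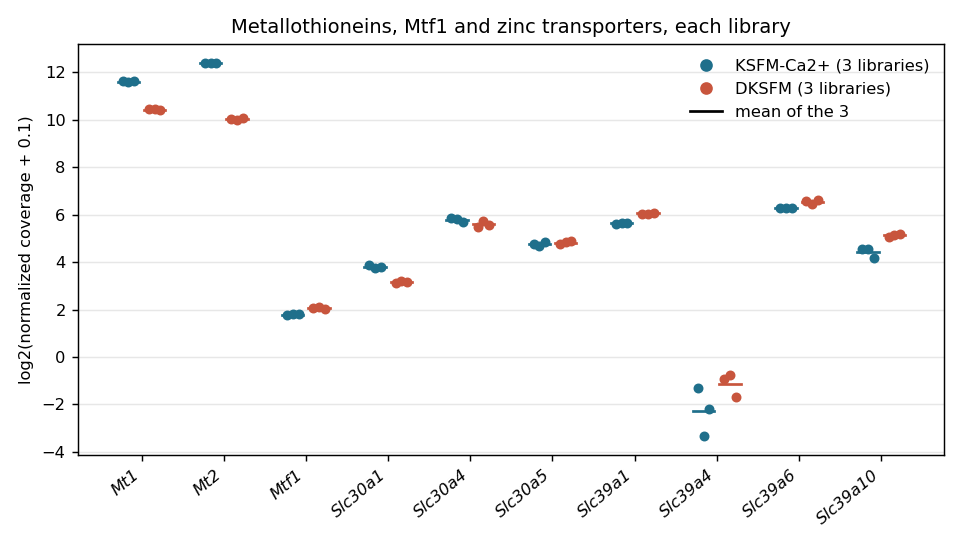
Levels of the 10 genes in each library as log2(normalized coverage + 0.1), with KSFM-Ca2+ libraries in blue, DKSFM libraries in red and a bar at the mean of the 3. Mt2 and Mt1 sit far above the other genes in both lines, and in Mt1, Mt2 and Slc30a1 the 3 DKSFM points lie below the 3 KSFM-Ca2+ points.

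The balance between the metallothioneins also differed. The ratio of Mt2 to Mt1 coverage was 1.72, 1.73 and 1.73 in KSFM-Ca2+ replicates 1 to 3 and 0.765, 0.721 and 0.790 in DKSFM replicates 1 to 3. Mt2 was thus the more abundant gene in all 3 KSFM-Ca2+ libraries and Mt1 in all 3 DKSFM libraries. The mean ratio was 1.73 ± 0.0085 (SD, n = 3) in KSFM-Ca2+ and 0.759 ± 0.035 (SD, n = 3) in DKSFM. Because both values of a ratio come from the same library, it does not depend on scaling to library size. Together Mt1 and Mt2 made up 0.706%, 0.689% and 0.691% of the coverage summed over all genes in the KSFM-Ca2+ replicates, and 0.198%, 0.195% and 0.197% in the DKSFM replicates. That share was 0.695% ± 0.0096 (SD, n = 3) in KSFM-Ca2+ and 0.196% ± 0.0015 (SD, n = 3) in DKSFM.

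**Figure D2:**
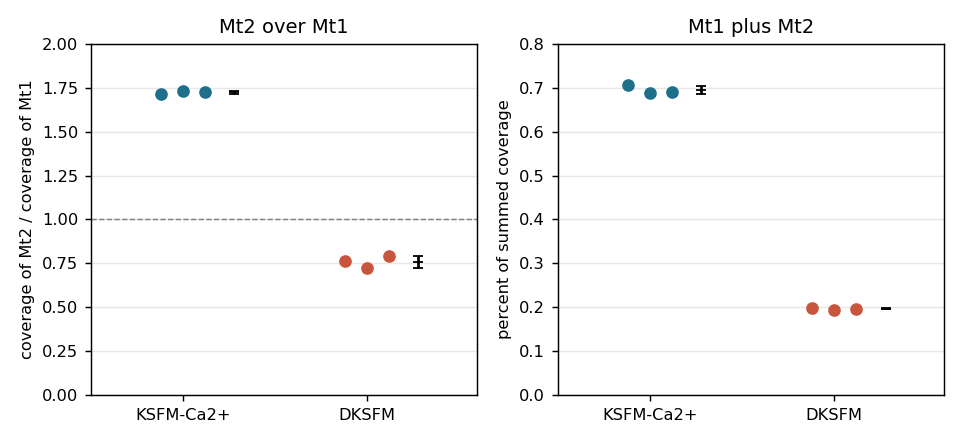
Ratio of Mt2 to Mt1 coverage (left, no unit) and share of Mt1 plus Mt2 in the coverage summed over all genes (right, percent), with 1 point per library and the mean ± SD beside the points. The KSFM-Ca2+ ratios lie between 1.72 and 1.73 and the DKSFM ratios between 0.721 and 0.790, on opposite sides of the dashed line at equal coverage.

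The other metallothionein genes were scarcely seen. Mt3, best known from the brain, was listed at 0 in all 6 libraries. Mt4, a form of stratified squamous epithelia, had listed coverage of 0.2, 0.6 and 0 in the KSFM-Ca2+ replicates and 0.2, 0 and 0.6 in the DKSFM replicates. These values are a few steps of the 0.1 to which coverage was rounded, and the lines overlapped.

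Mtf1, whose product senses zinc, had a low level that was slightly higher in DKSFM. Its normalized coverage was 3.28, 3.37 and 3.42 in the KSFM-Ca2+ replicates and 4.13, 4.19 and 3.92 in the DKSFM replicates. Every DKSFM library lay above every KSFM-Ca2+ library, but the log2 difference was 0.27 (SE 0.087), well short of 2-fold. With quantile normalization in place of the scaling used here, the log2 difference of Mtf1 was 0.075.

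Among the exporters of the 10 genes, Slc30a1 stood apart. It encodes the ZnT exporter of the plasma membrane, and its normalized coverage was 14.8, 13.4 and 13.7 in the KSFM-Ca2+ replicates and 8.57, 9.18 and 8.91 in the DKSFM replicates. The lines did not overlap, and the log2 difference was -0.64 (SE 0.064), or 1.56-fold lower in DKSFM. Slc30a4, which loads zinc into vesicles, had normalized coverage of 51.7 to 58.0 in KSFM-Ca2+ and 45.1 to 53.5 in DKSFM. Slc30a5, which supplies zinc to enzymes of the secretory pathway, ranged from 25.3 to 28.6 in KSFM-Ca2+ and from 27.1 to 29.4 in DKSFM. In both genes the lines overlapped, with log2 differences of -0.19 (SE 0.071) for Slc30a4 and 0.065 (SE 0.058) for Slc30a5.

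The importers of the 10 genes had higher levels in DKSFM or were hardly detected. Slc39a10, a plasma membrane importer and a gene that MTF1 is known to repress, had normalized coverage of 23.2, 23.1 and 18.1 in the KSFM-Ca2+ replicates and 33.1, 35.0 and 36.8 in the DKSFM replicates. KSFM-Ca2+ replicate 3 was low, and all KSFM-Ca2+ libraries lay below all DKSFM libraries. The log2 difference of Slc39a10 was 0.71 (SE 0.098), or 1.64-fold higher in DKSFM. It was 0.597 without KSFM-Ca2+ replicate 3 and 0.951 with that replicate as the only library of its line. Slc39a1, a plasma membrane importer of many cell types, had normalized coverage of 48.5 to 50.9 in KSFM-Ca2+ and 65.3 to 68.1 in DKSFM, a log2 difference of 0.41 (SE 0.036). A pseudogene, Slc39a1-ps, shares 16.7% of the 85-base stretches of the Slc39a1 transcript, so part of its coverage is uncertain. Slc39a6, which forms a complex with the product of Slc39a10, ranged from 77.3 to 78.5 in KSFM-Ca2+ and from 88.5 to 97.4 in DKSFM, a log2 difference of 0.26 (SE 0.040). The lines did not overlap in either gene.

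Slc39a4, the importer of the intestine, had listed coverage of 0.4, 0 and 0.1 in the KSFM-Ca2+ replicates and 0.4, 0.5 and 0.2 in the DKSFM replicates. A step of 0.1 is worth about 1.82 reads of 85 bases at the median length of its annotated transcripts, 1549 bases, so small differences cannot be seen at this depth.

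The fit across all genes took those that reached a normalized coverage of 0.5 in 3 or more libraries, 12409 in number. Of the 10 genes, 9 entered, and Slc39a4 did not. A gene was called when its Benjamini-Hochberg adjusted p in limma was under 0.01 and its difference at least 2-fold. Of the 9 genes, 2 were called lower in DKSFM, Mt1 and Mt2, beside 1316 of the 12409 tested genes (10.6%). None of the 9 was called higher, beside 1629 genes (13.1%). The 3 DKSFM libraries lay below the 3 KSFM-Ca2+ libraries in 3 of the 9 genes, beside 42.3% of the tested genes, and above them in 4, beside 41.0%. Since this contrast chose the genes, nothing is read from these counts.

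The order of the 10 genes by level was nearly the same in both lines. In KSFM-Ca2+ it ran Mt2, Mt1, Slc39a6, Slc30a4, Slc39a1, Slc30a5, Slc39a10, Slc30a1, Mtf1 and Slc39a4, and neighbours in this order did not overlap between libraries. In DKSFM 3 pairs of neighbours changed places, namely Mt1 with Mt2, Slc39a1 with Slc30a4 and Slc39a10 with Slc30a5, again without overlap between neighbours. Slc39a6 was the most abundant transporter of the 10 genes at 77.9 ± 0.56 (SD, n = 3) in KSFM-Ca2+ and 93.6 ± 4.6 (SD, n = 3) in DKSFM.

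The rest of the SLC30 and SLC39 families was counted beside all tested genes. Outside the 10 genes the families have 17 further members, of which 11 were tested. Slc39a8 and Slc39a2 passed the filter only through the DKSFM libraries, where they were high, so the families were counted on the 9 further members with at least 0.5 in every library, beside the 11112 genes that met this stricter filter. Of the 9, 2 were higher and 1 was lower in DKSFM at an adjusted p under 0.01, and 6 did not pass, beside 34.4% higher and 38.8% lower among the 11112. Calls at 2-fold were made for 1 higher and 1 lower, beside 9.22% and 8.68%. For 9 genes these calls are near those shares, so nothing is read from the counts about the families. The median log2 difference of the 9 genes was 0.098, and that over the 11112 genes was -0.026.

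Slc30a6, whose product partners that of Slc30a5 in the secretory pathway, rose. Its normalized coverage was 30.2, 30.6 and 31.6 in the KSFM-Ca2+ replicates and 62.7, 60.5 and 62.6 in the DKSFM replicates, while that of Slc30a5 overlapped between the lines. The log2 difference of Slc30a6 was 1.005 (SE 0.037, adjusted p = 7.97e-08), with all 3 DKSFM libraries above all 3 KSFM-Ca2+ libraries. The value sits at the 2-fold limit, and the call at 2-fold was lost in 7 of 16 alternatives, among them those without KSFM-Ca2+ replicate 1 (0.995), DKSFM replicate 1 (0.996) or DKSFM replicate 3 (0.997). The adjusted p over the alternatives was at most 0.000527.

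Slc39a11, a ZIP transporter of the Golgi, fell. Its normalized coverage was 288.4, 285.2 and 290.4 in the KSFM-Ca2+ replicates and 132.3, 145.8 and 143.4 in the DKSFM replicates. The log2 difference was -1.04 (SE 0.039, adjusted p = 8.92e-08), lower in 3 of 3 DKSFM libraries. It too lies near the 2-fold limit, at -0.99 without DKSFM replicate 1 and -0.98 with quantile normalization, where the 2-fold call was lost. The adjusted p over the alternatives was at most 0.00111.

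Slc39a3, a plasma membrane importer, rose by 0.84 on the log2 scale (SE 0.075, adjusted p = 1.29e-05) without reaching 2-fold. Its normalized coverage was 12.5 to 14.6 in KSFM-Ca2+ and 22.7 to 25.8 in DKSFM.

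Slc39a8 and Slc39a2 are described by their levels, without a test, since only the line in which they were high brought them past the filter. Slc39a8, an importer of zinc and manganese, was listed at 0 in all 3 KSFM-Ca2+ libraries and at 1.7, 1.7 and 1.0 in DKSFM replicates 1 to 3. No fold is printed in the text against a line listed at 0. The plot of log2 differences of the tested family genes does show Slc39a8 with an interval. Its place there depends on the pseudocount, and the interval is not read as a test. Slc39a2, an importer known from differentiating keratinocytes, was listed at 0.1, 0.2 and 0 in the KSFM-Ca2+ replicates and at 1.0, 1.3 and 1.4 in the DKSFM replicates. Its log2 difference of 2.98 depends on the pseudocount and was 1.062 with a pseudocount of 1. That all 3 DKSFM libraries lay above all 3 KSFM-Ca2+ libraries in both genes follows from how these genes passed the filter. Nothing is read from it.

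The 2 most abundant transporters of both families in KSFM-Ca2+ were Slc39a7, at 320.0 ± 4.0 (SD, n = 3), and Slc39a11. Slc39a7 releases zinc from the endoplasmic reticulum, and its level in DKSFM was 313.4 ± 4.1 (SD, n = 3), a log2 difference of -0.030 with a 95% interval of -0.088 to 0.029 (adjusted p = 0.30). Another gene model, Gm20427, shares 80.3% of the 85-base stretches of Slc39a7, so its coverage may be split. The other 5 tested genes that did not pass were Slc30a7, Slc30a9, Slc39a9, Slc39a13 and Slc39a14. Their log2 differences ran from -0.094 for Slc30a9 to 0.15 for Slc39a9, and their 95% intervals lay between -0.20 and 0.26. Without KSFM-Ca2+ replicate 3, Slc39a13 passed at an adjusted p of 0.00943 with a log2 difference of 0.161, and over its alternatives its adjusted p ranged from that value to 0.558. Slc30a2, Slc30a8, Slc30a10 and Slc39a12 were listed at 0 in every library, and Slc30a3 and Slc39a5 at no more than 0.1.

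**Figure D3:**
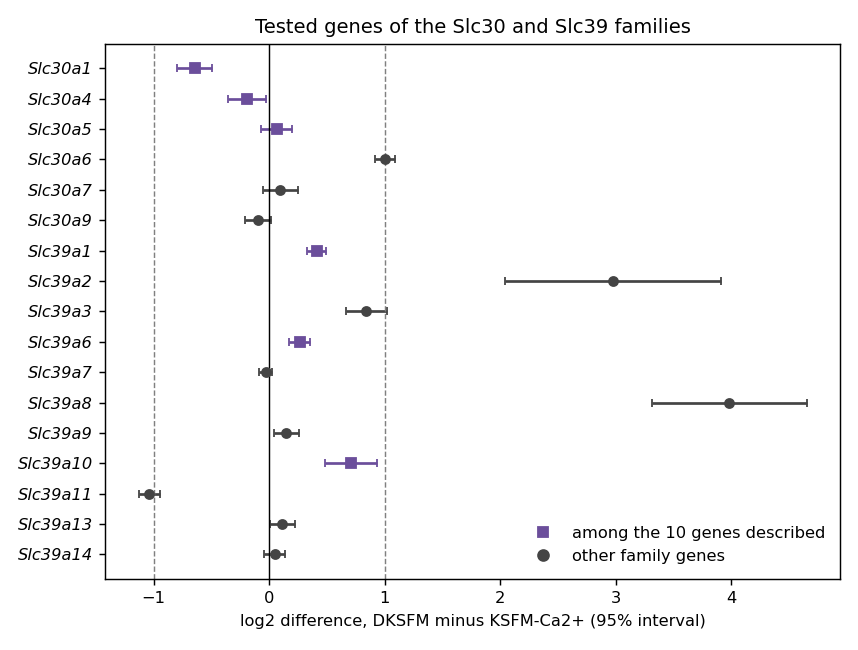
Log2 difference, DKSFM minus KSFM-Ca2+, of the 17 tested genes of the Slc30 and Slc39 families with 95% intervals, squares for those among the 10 genes described and circles for the rest. The dashed lines mark 2-fold. Slc39a8 (listed at 0 in KSFM-Ca2+) and Slc39a2 lie far to the right with wide intervals, and their places depend on the pseudocount. Their intervals are not read as a test, since only the DKSFM libraries brought them past the filter. Slc39a11 lies at -1.04.

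Genes that MTF1 is known to regulate, other than the metallothioneins, were counted in the same way. Of 6 such genes outside the 10, 5 were tested. At an adjusted p under 0.01, 3 were higher and 2 lower in DKSFM, beside 35.3% and 37.3% of all tested genes. At 2-fold 2 were called higher, beside 13.1%, and 0 lower with limma (also 0 lower at 2-fold and an unadjusted p under 0.05), beside 10.6%. The median log2 difference of the 5 genes was 0.52, beside -0.0052 over all tested genes. With only 5 genes, nothing is read from these counts about MTF1-regulated genes as a set. Cebpa, a transcription factor of epidermal differentiation, rose from 78.5 to 87.7 in the KSFM-Ca2+ libraries to 487.8 to 523.8 in the DKSFM libraries. Its log2 difference was 2.64 (SE 0.050, adjusted p = 2.62e-09). Gclc, the catalytic subunit of the rate-limiting enzyme of glutathione synthesis, was 105.1 to 109.4 in KSFM-Ca2+ and 381.7 to 409.1 in DKSFM. The log2 difference of Gclc was 1.88 (SE 0.034, adjusted p = 2.08e-09). In both genes all 3 DKSFM libraries were higher. Short of 2-fold, Selenow, a small selenoprotein, was higher, at 0.52 on the log2 scale (SE 0.030, adjusted p = 9.57e-07) and in 3 of 3 DKSFM libraries, and Ndrg1 and Csrp1 were lower. These 3 genes are named after their values were seen. The log2 differences of the lower genes were -0.66 (SE 0.047, adjusted p = 3.44e-06) for Ndrg1 and -0.30 (SE 0.051, adjusted p = 0.000701) for Csrp1, each lower in 3 of 3 DKSFM libraries.

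Copper, which metallothioneins also bind, is handled by a separate set of carriers and chaperones. Of 11 copper-handling genes 10 were tested. At an adjusted p under 0.01, 6 were higher and 2 lower, beside 35.3% and 37.3% of all tested genes, and none reached 2-fold with limma, also at an unadjusted p under 0.05 (0 genes), against 13.1% and 10.6% of all tested genes called higher and lower. The median log2 difference of the 10 genes was 0.22.

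Glucocorticoids are known inducers of Mt1 and Mt2, and the gene of the glucocorticoid receptor and 7 of its other targets were counted for that reason. All 8 genes of that list were tested. At an adjusted p under 0.01, 6 were higher and none lower with limma (also 0 lower at an unadjusted p under 0.05), with a median log2 difference of 0.67, beside 35.3% and 37.3% of all tested genes and a median of -0.0052. At 2-fold 2 were called higher, beside 13.1%. Dusp1, a phosphatase of MAP kinases, was 6.25 to 7.08 in KSFM-Ca2+ and 33.44 to 40.02 in DKSFM, a log2 difference of 2.45 (SE 0.083, adjusted p = 4.93e-08). Zbtb16, a transcription factor, was 9.21 to 10.4 in KSFM-Ca2+ and 24.6 to 28.0 in DKSFM, a log2 difference of 1.40 (SE 0.073, adjusted p = 5.02e-07). In both genes all 3 DKSFM libraries were higher.

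Of 9 genes of the response to metals and oxidative stress, 8 were tested. At an adjusted p under 0.01, 5 were higher and 3 lower, beside 35.3% and 37.3% of all tested genes, with a median log2 difference of 0.25. At 2-fold 2 were called higher and 1 lower, beside 13.1% and 10.6%. Slc7a11, the cystine importer that feeds glutathione synthesis, fell from 24.4 to 25.2 in KSFM-Ca2+ to 5.29 to 6.89 in DKSFM. Its log2 difference was -1.999 (SE 0.093, adjusted p = 2.74e-07), lower in 3 of 3 DKSFM libraries. The heat shock gene Hspa1a was low in KSFM-Ca2+, at 0.827 to 1.39, and was 11.7 to 13.4 in DKSFM. Its log2 difference was 3.37 (SE 0.17, adjusted p = 4.61e-07), or 2.66 with a pseudocount of 1, where the adjusted p was 3.28e-08 (from 3.28e-08 to 0.000298 over its alternatives). Hspa1b went from 27.6 to 28.6 in KSFM-Ca2+ to 74.8 to 80.9 in DKSFM, a log2 difference of 1.47 (SE 0.041, adjusted p = 1.73e-08). All 3 DKSFM libraries were higher in both. Their transcripts share 52.0% and 53.5% of their 85-base stretches with each other or with Hspa1l, so the split of coverage between them is uncertain.

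The 5 genes whose pattern was most like that of Mt2 were found by the Euclidean distance between log2(normalized coverage + 0.1) profiles over the 6 libraries, each centred on its mean. From the nearest on, they were Tsku, Tubb6, Nfkbia, Acot7 and Afap1l1, at distances of 0.087 to 0.14 among 12408 other tested genes. Tsku, a secreted leucine-rich repeat protein, had normalized coverage of 137.7 to 147.1 in KSFM-Ca2+ and 26.7 to 29.7 in DKSFM. Its log2 difference was -2.34, beside -2.37 for Mt2. Nfkbia encodes the NF-kappa-B inhibitor alpha, at 228.5 to 242.6 in KSFM-Ca2+ and 46.6 to 47.4 in DKSFM, a log2 difference of -2.32. The genes differed widely in level, since Mt2 had a mean of 5427 in KSFM-Ca2+ and Afap1l1 one of 32.5. Mt1, next to Mt2 on the chromosome, stood at place 788 by this distance, at 1.46. With 2 groups of libraries, likeness here means mainly a difference of similar size between the lines.

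Genes around each of the 10 genes were summarised by the median log2 difference of the other tested genes within 10 Mb on each side, minus the median over all tested genes. Positions were found for 12326 of the 12409 tested genes. For Mt2 and Mt1, which were both left out, the value was -0.47 over 95 neighbours on chromosome 8. Of these neighbours 77 had a log2 difference below 0, while the median over all tested genes was -0.0052. At 2-fold 12 neighbours (12.6%) were called lower and 10 (10.5%) higher, beside 10.6% and 13.1% of all tested genes. Mt1 had a lower log2 difference than all but 7 of the neighbours and Mt2 than all but 3. These places are only a description, since the 10 genes were chosen because Mt2 was lower in DKSFM. The windows of 5 and 20 Mb gave -0.38 and -0.51.

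**Figure D4:**
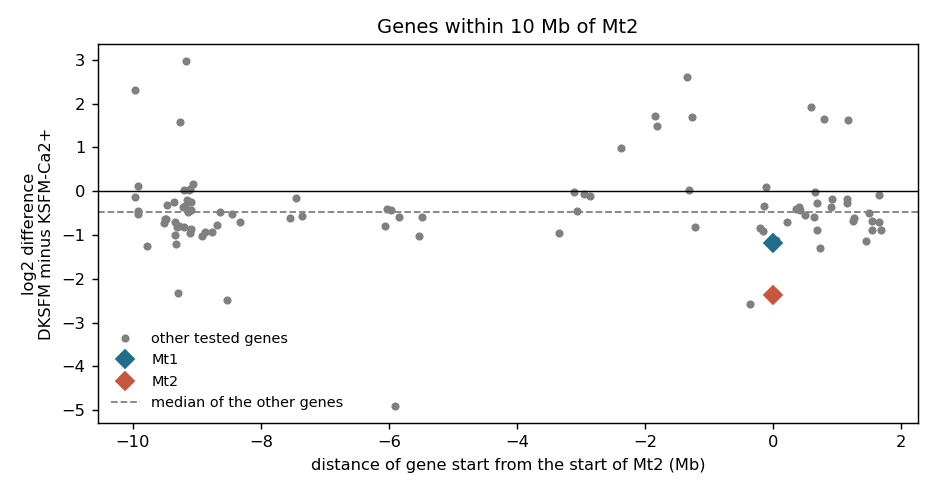
Log2 difference, DKSFM minus KSFM-Ca2+, of tested genes by the distance of their start from the start of Mt2 in Mb, with Mt1 and Mt2 as diamonds and a dashed line at the median of the other genes, -0.48. Most neighbours lie below 0. Mt2 lies at -2.37, below all but 3 of the neighbours, of which Adcy7 is the lowest at -4.90. The place of Mt2 is only a description, since it was chosen for its lower level in DKSFM. No tested gene starts more than 1.69 Mb after Mt2 in this window.

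The protein-coding genes that flank the metallothionein cluster did not share 1 level of change. Nup93, a nuclear pore protein gene 34236 bases after the end of Mt1, fell from 251.5 to 268.0 in KSFM-Ca2+ to 116.2 to 123.3 in DKSFM. Its log2 difference was -1.11 (SE 0.037, adjusted p = 4.29e-08), lower in 3 of 3 DKSFM libraries and close to the -1.18 of Mt1. Slc12a3, the next gene on that side, was listed at 0 in every library. On the other side, Bbs2 had a log2 difference of 0.097 with a 95% interval of -0.091 to 0.29 (adjusted p = 0.294), and its lines overlapped. Ogfod1, the gene beyond Bbs2, fell by 0.34 on the log2 scale (SE 0.046, adjusted p = 0.000174).

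For the other genes of the 10, neighbourhood and gene did not always have the same sign. Around Slc30a1 on chromosome 1 the neighbourhood value was -0.51 over 64 genes, beside -0.64 for Slc30a1 itself. Slc39a10, elsewhere on chromosome 1, had 67 neighbours with a value of -0.49, while its own log2 difference was 0.71. Slc39a6 on chromosome 18 had a neighbourhood value of -0.53 over 54 genes and an own difference of 0.26. Slc39a1 on chromosome 3 had a neighbourhood value of 0.51 over 227 genes and an own difference of 0.41. The neighbourhood values were -0.21 for Slc30a4 on chromosome 2, -0.29 for Slc30a5 on chromosome 13, 0.088 for Mtf1 on chromosome 4 and 0.045 for Slc39a4 on chromosome 15. Several of these values depend on the window. In the 5 Mb window they were -0.058 for Slc30a4, 0.00070 for Mtf1 and 0.117 for Slc39a4, and in the 20 Mb window -0.054 for Slc39a4 and -0.21 for Slc39a6. Whether differences along chromosomes contributed to the levels of these genes was not tested.

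Marker genes gave the cell type of the libraries. All 8 keratinocyte markers were detected, and their summed normalized coverage was 20624, 21032 and 20607 in the KSFM-Ca2+ replicates and 49357, 45725 and 49992 in the DKSFM replicates. Krt14, the basal keratin, was the most abundant, at 11992 ± 241.9 (SD, n = 3) in KSFM-Ca2+ and 29678 ± 1520 (SD, n = 3) in DKSFM. With quantile normalization the log2 difference of Krt14 fell from 1.31 to 0.947. The sum does not stand for each gene of the list. At an adjusted p under 0.01, 6 markers were higher in DKSFM and 1 lower, beside 35.3% and 37.3% of all tested genes, and the median log2 difference of the 8 was 0.25. The part of these differences in the levels of Mt1 and Mt2 was not tested. Of 8 fibroblast markers, Col1a1, Col1a2, Col3a1, Pdgfrb, Dcn, Lum and Fap were listed at 0 in every library. The remaining one, Pdgfra, was 0.893 to 1.30 in KSFM-Ca2+ and 2.10 to 2.33 in DKSFM. The 6 immune cell markers summed to at most 0.299 in any library, with Cd3e and Adgre1 at 0 throughout. Itgam ranked first over all libraries, but it was at 0 in KSFM-Ca2+, and no marker of this list was listed above 0.1.

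Of 6 melanocyte markers, Tyr and Dct were at 0 in every library. The list summed to 3.96, 3.97 and 4.61 in the KSFM-Ca2+ replicates and 17.3, 18.7 and 18.3 in the DKSFM replicates, most of it from Mitf, at 3.07 to 3.90 in KSFM-Ca2+ and 16.9 to 18.1 in DKSFM. The 4 endothelial markers summed to 2.82, 3.17 and 3.31 in KSFM-Ca2+ and 8.26, 8.28 and 7.42 in DKSFM, most of it from Pecam1, with Cdh5 at 0 throughout. Whether other cell types contributed to the levels of Mt1 and Mt2 was not tested.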

How the data were processed

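Poly(A) RNA-seq of 3 KSFM-Ca2+ and 3 DKSFM libraries was analysed from files per gene. The authors deposited a signal, the mean read coverage per base of 24982 genes to 1 decimal, with no scaling between libraries. They aligned single reads of 85 bases to mm10 with STAR. KSFM-Ca2+ replicate 3 and all DKSFM libraries have files marked "combined", a term not explained in the sources used here. Total coverage per library was 1057750 to 1601676, and no counting interval is given since coverage is not a count.

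Libraries were scaled with trimmed means of M values, unweighted (30% of M and 5% of A trimmed on each side; factors 0.990 to 1.01). The planned test for counts did not apply. A limma 3.58.1 model in R 4.3.3, with an intensity trend, was fitted to log2(normalized coverage + 0.1) and tested two-sided. The 0.1 added before the logarithm understates differences of low genes. The procedure was tested on simulated data. GENCODE M21 positions were found under the same symbol for 24490 genes and under a synonym for 74.

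Named were all 10 genes, every gene of the metallothionein, Slc30 and Slc39 lists, up to 3 called genes with the largest difference from each other list, the 5 genes nearest to Mt2, the 2 protein-coding genes on each side of the cluster, and from each cell type list the most abundant gene and those at 0. Ndrg1, Csrp1 and Selenow were named beyond this rule, after their values were seen. The 10 genes and the lists were chosen with earlier results of these data known. Alternatives were 3 other scalings, 2 other filters, 2 other pseudocounts, no trend, a replicate block, each library left out (the filter then asking for 2 libraries), only the "combined" libraries, and windows of 5 and 20 Mb.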

Additional observations from a re-analysis of the deposited data

How the results depend on the processing

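Over the 16 alternatives the log2 difference ran from -1.25 to -1.17 for Mt1 and from -2.39 to -2.29 for Mt2, given as a description since this contrast chose them. The value farthest from the main one came with quantile normalization for both, -1.25 for Mt1 and -2.29 for Mt2. Asking for at least 0.5 in every library left 11112 genes tested and 1025 called higher, against 1629, because genes at or near 0 in KSFM-Ca2+ leave the test. Slc39a8 and Slc39a2, which only the DKSFM libraries brought past the main filter, are among the genes that left. Of the other Slc30 and Slc39 genes outside the 10, 1 was called higher with either filter, Slc30a6. Calls lower among those family genes went from 1 to 0 with quantile normalization and ranged from 0 to 1 with each library left out, 0 without DKSFM replicate 1. Copper-handling genes called lower went from 0 to 1 without a filter, where more genes are tested, and stress genes called lower from 1 to 2 with the "combined" libraries, where a lone KSFM-Ca2+ library is assumed to vary like the others and the cause was not tested. The neighbourhood of Mt2 was at -0.38 in the 5 Mb window and -0.51 in the 20 Mb window. That of Slc39a4 changed sign in the 20 Mb window (-0.054), that of Slc39a6 was weaker there (-0.21), and those of Slc30a4 (-0.058) and Mtf1 (0.00070) were nearer to 0 in the 5 Mb window.

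Same-numbered libraries did not deviate together (correlations of -0.0051, 0.024 and -0.0061 over 12409 genes), and not every library correlated best with its own number, so the numbers were not taken as pairs. With the replicate number as a block, 1636 genes were called higher and 1316 lower, and the block changed no call among 104 genes, those of the lists, beside the cluster and nearest to Mt2. Low coverage and its 0.1 step limit what can be said of Slc39a2, Slc39a4, Slc39a8, Hspa1a and Mt4.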
